A study of Mus musculus with 6 samples.

Results

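The genes described here are the subunits of the AP-1 transcription factor and their close BATF and small MAF relatives in mouse splenic natural killer (NK) cells. The 10 members were chosen by gene symbol, with earlier results of these data known, and comprise Fos, Fosb, Fosl1, Fosl2, Jun, Junb, Jund, Batf, Batf3 and Maff. Each symbol matched 1 of the 50686 genes in the count table, and all 10 passed the filter on low counts. RNA was sequenced from 6 libraries of sorted NK cells, 3 per group. The WT group came from healthy wild-type C57BL/6J mice. The Eumyc group came from C57BL/6J mice that had received Eumyc lymphoma, a mouse B cell lymphoma driven by a Myc transgene, into a vein, with spleens taken 14 days later, so the name stands for the tumour of the host and no genotype is given for the NK cells. Cells of both groups were depleted of B cells and sorted as NK1.1+TCRb-, but for Eumyc the cells that CD49b beads had not held were sorted too. This step and the lymphoma cannot be told apart in any comparison below, and neither can fewer cells of a type and less RNA per cell. The labels give no ages and name neither animals nor pools, so p-values measure the spread between these samples, which may be technical.

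AP-1 is a dimer of basic leucine zipper proteins. A JUN protein pairs with itself or with a FOS or BATF protein and binds the sequence TGANTCA, and FOS proteins need a JUN partner. Fos and Jun are immediate early genes, switched on within minutes of receptor signalling or cell handling through MAP kinases, and AP-1 in lymphocytes acts at genes of activation and cytokine production. BATF proteins lack an activation domain of their own and, with a JUN partner, bind composite sites together with IRF4 or IRF8.

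The members moved in both directions. Levels are given as CPM, the reads of a gene relative to a library total scaled by TMM, and a gene counted as changed when the adjusted p of edgeR's quasi-likelihood test over all 15458 tested genes was under 0.05. Of the 10 members 5 fell (Fos, Fosb, Fosl2, Jun and Junb), 3 rose (Batf, Batf3 and Maff) and 2 did not pass (Fosl1 and Jund). The background was high, since 48.8% of all tested genes were called, 25.7% higher and 23.1% lower in Eumyc. The median log2 fold change was -0.51 over the members and -0.00 over all tested genes. Tested against a change of 1.5-fold, which 11.8% of all genes passed, 4 members remained, namely Fos, Fosb, Batf3 and Maff. The groups did not overlap for 9 of the 10 members, with Eumyc above WT for Batf, Batf3 and Maff and below for Fos, Fosb, Fosl1, Fosl2, Jun and Junb. Over all tested genes 60.2% did not overlap, 31.3% with Eumyc above and 28.9% with Eumyc below.

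**Figure D1:**
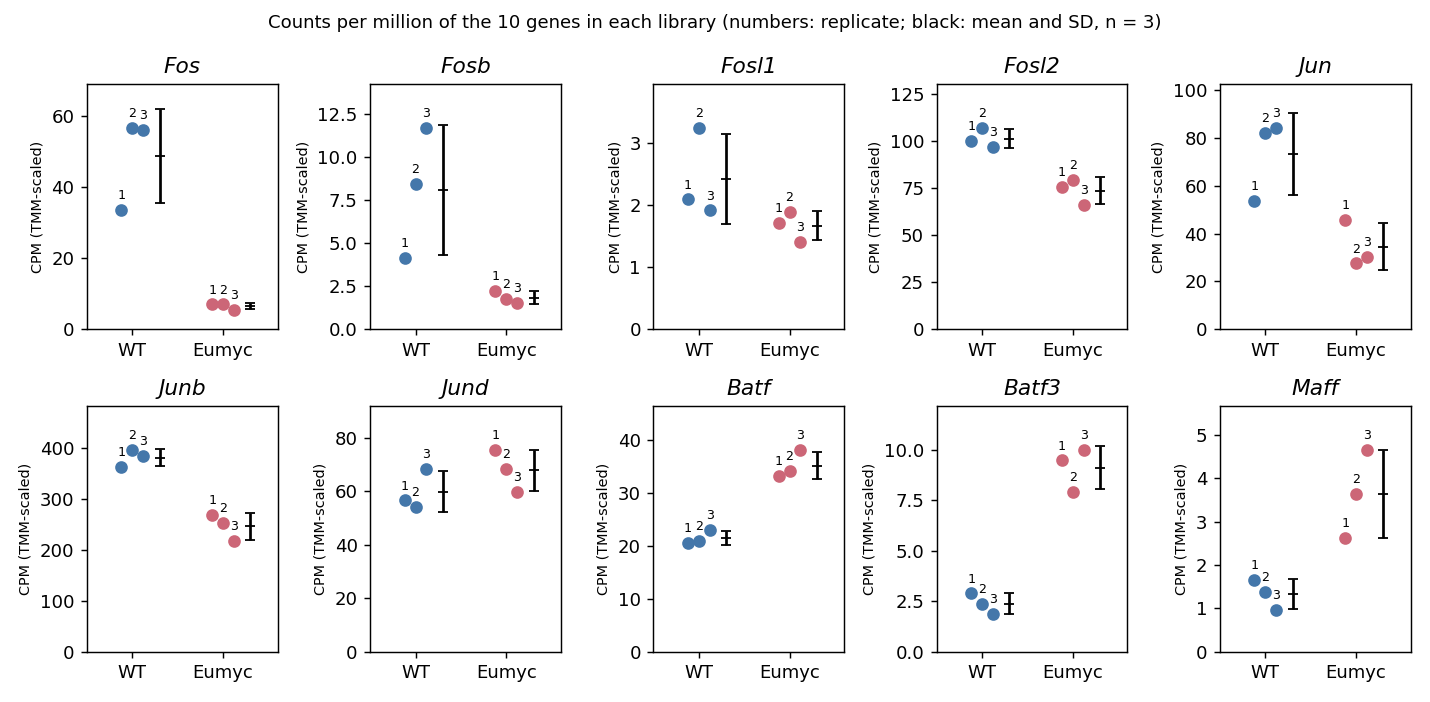
CPM (TMM-scaled, linear axes from 0) of each member in each library, with points numbered by replicate and black bars for the mean and SD of 3 libraries. The WT and Eumyc points are apart in every panel but that of Jund, and for Fos WT lies at 33.6 to 56.8 CPM and Eumyc at 5.55 to 7.01 CPM, the widest gap of the members on the log2 scale.

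The FOS family held the largest change among the members. Fos, the founding subunit, measured 33.6, 56.8 and 56.1 CPM in replicates 1 to 3 of WT, against 6.99, 7.01 and 5.55 CPM in those of Eumyc. All Eumyc libraries lay far below all WT libraries, and WT 1 was the lowest of its group. Fos fell by 2.91 on the log2 scale (SE 0.21, adjusted p = 0.000121), a 7.49-fold lower mean CPM, and 10 of the 15458 tested genes had a lower log2 fold change. In the authors' deposited table, which lists 10292 genes, Fos had a log2 fold change of -2.71 and 0 genes had a lower one. That table comes from another test on a smaller set of genes, so its ranks and fold changes are not like for like with those here. The authors' deposited table lists 8 of the 10 members, all but Fosl1 and Maff, with Fosb at -1.71, Jun at -1.02, Batf at 0.69 and Batf3 at 1.75 as log2 fold changes.

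Fosb, an activating FOS protein like FOS, gave 4.15, 8.41 and 11.7 CPM in WT, compared with 2.24, 1.76 and 1.52 CPM in Eumyc. It fell by 2.13 (SE 0.36, adjusted p = 0.00183), with WT 1 again the lowest of the WT libraries and every Eumyc library below it. Fosl2 encodes FRA2, a FOS relative without the strong activation domain of FOS. Its WT libraries gave 99.9, 107 and 96.8 CPM, its Eumyc libraries 75.6, 79.4 and 65.8 CPM, groups that did not overlap, and fell by 0.46 (SE 0.08, adjusted p = 0.00217). Fosl1, which encodes the related FRA1, was low throughout, with 2.09, 3.25 and 1.92 CPM for WT, against 1.71, 1.89 and 1.41 CPM for Eumyc. The groups were apart by 0.023 log2 units only, and the log2 fold change of -0.56 ± 0.27 (SE) did not pass (adjusted p = 0.115). Without WT 2, the highest library, it was -0.26 (adjusted p = 0.436). The merged exons of Fosl1, 2033 bases long, share 1163 bases with Ccdc85b on the opposite strand, a gene with means of 39.8 (WT) and 33.9 (Eumyc) CPM. No source used here says whether reads were counted by strand, which leaves the Fosl1 value uncertain.

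Fos lies on chromosome 12 from 85473890 to 85477273 and Fosb on chromosome 7 from 19302696 to 19310051 (GRCm38, whole genes, both protein-coding). Their upstream sequences are shown because these genes fell the most of the members. Each is the 250 bases before the RefSeq start (GRCm38.p6), 5′ to 3′ on the strand of the gene, chr12:85473640-85473889 on the plus strand for Fos and chr7:19310046-19310295 on the minus strand for Fosb. Capitals mark TGACG, the core of the cAMP response element (CRE), found on either strand, or the AP-1 type site TGANNTCA, which has the spacing of the CRE.
Fos: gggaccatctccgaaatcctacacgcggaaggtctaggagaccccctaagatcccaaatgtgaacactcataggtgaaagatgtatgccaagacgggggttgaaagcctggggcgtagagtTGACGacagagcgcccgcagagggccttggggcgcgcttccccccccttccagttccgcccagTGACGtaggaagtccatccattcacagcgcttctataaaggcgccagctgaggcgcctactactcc
Fosb: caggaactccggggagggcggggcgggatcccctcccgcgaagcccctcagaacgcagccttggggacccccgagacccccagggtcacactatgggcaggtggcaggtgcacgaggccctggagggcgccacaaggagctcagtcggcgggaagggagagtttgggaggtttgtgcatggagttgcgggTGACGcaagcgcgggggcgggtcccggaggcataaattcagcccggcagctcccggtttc
Fos holds TGACG at positions -129 to -125 and -66 to -62, counted from the base before the start as -1, and Fosb at -60 to -56. TGACG on either strand occurs in 17.8% of the 32841 RefSeq windows of this length.

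The JUN family split. Junb, a JUN protein with weaker activating capacity than JUN, was the most abundant member, with 363, 395 and 385 CPM for WT, against 269, 252 and 217 CPM for Eumyc. All Eumyc libraries were below all WT libraries, and Junb fell by 0.63 (SE 0.08, adjusted p = 0.000644). Its exons share 173 bases with Prdx2 on the opposite strand, which moved the other way (log2 fold change 0.71, from 35.7 to 58.1 CPM). Jun itself gave 53.6, 82.0 and 84.2 CPM in WT, compared with 45.7, 27.6 and 30.2 CPM in Eumyc. The groups did not overlap, yet WT 1 and Eumyc 1 approached each other, at 0.23 log2 units. Jun fell by 1.09 (SE 0.22, adjusted p = 0.00447), and by 0.94 without Eumyc 2 to 1.33 without Eumyc 1 when 1 library was left out.

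Jund, which encodes the JUN protein known for steady expression in resting cells, had overlapping groups, with 56.5, 54.1 and 68.4 CPM for WT, against 75.2, 68.3 and 59.7 CPM for Eumyc. Gm11175 on the opposite strand, which shares 877 exon bases with it, had 0 counts. Its log2 fold change of 0.19 ± 0.11 (SE) did not pass (adjusted p = 0.201). WT 3 was the highest WT library, and without it Jund passed as higher in Eumyc (log2 fold change 0.30, adjusted p = 0.0349).

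Jun is a gene of 1 merged exon on chromosome 4 from 95049034 to 95052222, and Junb lies on chromosome 8 from 84974484 to 84978718. Their upstream sequences are set beside those of Fos and Fosb since these 4 genes fell together. They come from chr4:95052223-95052472 and chr8:84978749-84978998, both on the minus strand, with capitals as above.
Jun: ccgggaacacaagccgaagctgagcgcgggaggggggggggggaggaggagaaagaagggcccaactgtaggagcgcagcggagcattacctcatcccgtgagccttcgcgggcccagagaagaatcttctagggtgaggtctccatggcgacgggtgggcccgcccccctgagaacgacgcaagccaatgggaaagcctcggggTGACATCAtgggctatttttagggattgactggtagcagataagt
Junb: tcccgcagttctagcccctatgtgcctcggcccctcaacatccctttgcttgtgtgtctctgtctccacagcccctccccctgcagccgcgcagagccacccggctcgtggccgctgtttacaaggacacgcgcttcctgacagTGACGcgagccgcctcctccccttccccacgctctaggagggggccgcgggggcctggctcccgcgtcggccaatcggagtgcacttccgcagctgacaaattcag
Jun has TGACATCA, a match to TGANNTCA, at -45 to -38 and no TGACG, and Junb has TGACG at -106 to -102. TGANNTCA occurs in 11.9% of all windows, TGANTCA in 6.75% and the CArG box, the binding site of SRF, in 1.47%. TGANTCA and the CArG box had no match in the windows of the 9 members with a RefSeq window, all but Fosl1, which says only that these letters are not in these 250 bases.

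The BATF genes rose. Batf gave 20.5, 20.9 and 22.9 CPM in WT, compared with 33.1, 34.2 and 38.0 CPM in Eumyc. The 3 libraries of each group lay close together and did not overlap, and Batf rose by 0.71 ± 0.09 (SE, adjusted p = 0.000543), a 1.64-fold higher mean. Batf3, known for its role in the development of cross-presenting dendritic cells, measured 2.89, 2.38 and 1.86 CPM for WT, against 9.46, 7.90 and 9.96 CPM for Eumyc. It rose by 1.92 ± 0.19 (adjusted p = 0.000254), a 3.84-fold higher mean, and every Eumyc library was above every WT library. Irf4, a partner of BATF at composite sites, rose from 4.22 ± 0.84 to 21.0 ± 1.79 CPM (SD, n = 3 each, log2 fold change 2.29 ± 0.16, edgeR adjusted p = 0.000104). Irf8, the other partner, averaged 604 CPM in WT, 665 CPM in Eumyc, and missed the threshold (adjusted p = 0.339).

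Maff encodes a small MAF protein, which has no activation domain and pairs with factors such as NFE2 and NFE2L2. Its WT libraries gave 1.66, 1.38 and 0.959 CPM, its Eumyc libraries 2.63, 3.65 and 4.65 CPM. The groups did not overlap, with the highest values in Eumyc 3, and Maff rose by 1.43 ± 0.29 (SE, adjusted p = 0.00420). The other small MAF genes were more abundant and differed in direction. Mafk fell from 62.7 to 48.4 CPM (log2 fold change -0.37, edgeR adjusted p = 0.00486). Mafg rose from 29.3 to 38.8 CPM (log2 fold change 0.41, edgeR adjusted p = 0.0226).

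Batf lies on chromosome 12 from 85686669 to 85709087 and Maff on chromosome 15 from 79347541 to 79359072. Their upstream sequences are shown for comparison with the members that fell. They are chr12:85686470-85686719 and chr15:79347270-79347519, both on the plus strand, the latter being the nearest of 3 RefSeq windows to the deposited gene start.
Batf: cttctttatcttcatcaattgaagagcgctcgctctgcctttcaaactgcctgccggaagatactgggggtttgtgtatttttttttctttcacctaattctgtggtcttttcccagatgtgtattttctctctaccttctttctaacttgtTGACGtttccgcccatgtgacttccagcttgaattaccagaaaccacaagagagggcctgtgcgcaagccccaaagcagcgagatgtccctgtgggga
Maff: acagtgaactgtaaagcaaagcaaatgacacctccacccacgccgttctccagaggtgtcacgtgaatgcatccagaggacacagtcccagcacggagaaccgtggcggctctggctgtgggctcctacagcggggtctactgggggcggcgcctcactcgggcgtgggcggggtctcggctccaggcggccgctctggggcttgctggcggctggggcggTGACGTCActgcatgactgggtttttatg
Batf has TGACG at -98 to -94. Maff has the full CRE, TGACGTCA, at -29 to -22, which also counts as TGACG on both strands and as TGANNTCA and occurs in 1.55% of all windows. TGACG was thus in the windows of Fos, Fosb, Junb, Batf and Maff, 5 of 9, among genes that fell and genes that rose.

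**Figure D2:**
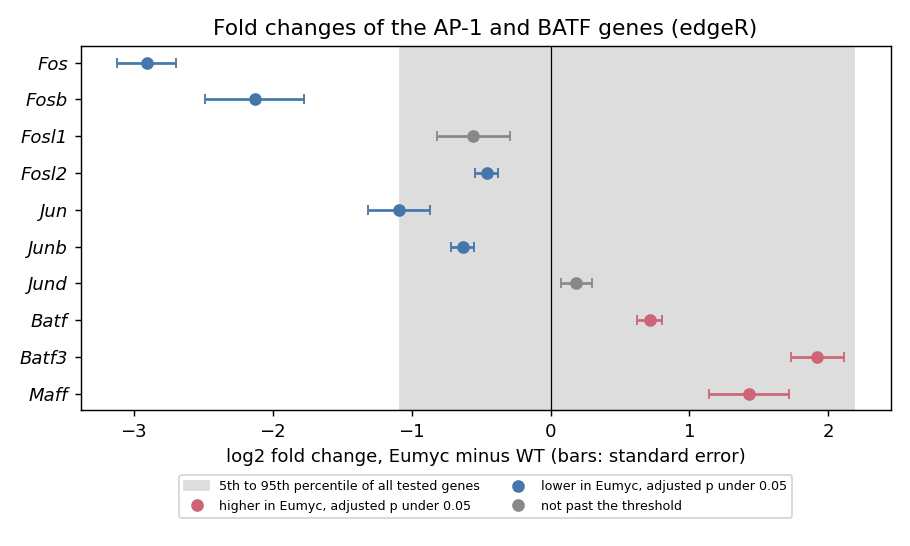
Log2 fold change of each member, Eumyc minus WT, with its standard error from edgeR (n = 3 per group), coloured by the test, over a grey band for the 5th to 95th percentile of all 15458 tested genes (-1.08 to 2.18). Fos at -2.91 and Fosb at -2.13 lie far below the band, Jun at -1.09 lies at its lower edge, and the members that rose lie inside it.

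The differences changed the make-up of the AP-1 transcripts. Levels between genes were compared as CPM per kilobase of merged exon. In WT the order of mean levels was Junb (165 CPM per kilobase), Jund (35.8), Jun (23.0), Fos (20.8), Batf (15.2), Fosl2 (10.5), Batf3 (1.49), Fosb (1.29), Fosl1 (1.19) and Maff (0.514). The ranges of Jun and Fos overlapped, as did those of Fos and Batf, Batf3 and Fosb, and Fosb and Fosl1. In Eumyc the order was Junb (107), Jund (40.6), Batf (25.0), Jun (10.8), Fosl2 (7.60), Batf3 (5.70), Fos (2.77), Maff (1.40), Fosl1 (0.821) and Fosb (0.295), and no neighbours overlapped. Batf thus stood below Fos and Jun in mean level in WT and above both in Eumyc. Of the summed level of the 10 members, the FOS family held 12.2% ± 1.53 in WT and 5.69% ± 0.38 in Eumyc (SD, n = 3 each), and the BATF genes 6.10% ± 0.38 and 15.3% ± 2.38. The JUN family held 81.5% ± 1.11 and 78.3% ± 2.53, with Jund at 13.0% ± 1.45 and 20.1% ± 0.64 of the sum. These shares describe the libraries and were not tested.

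**Figure D3:**
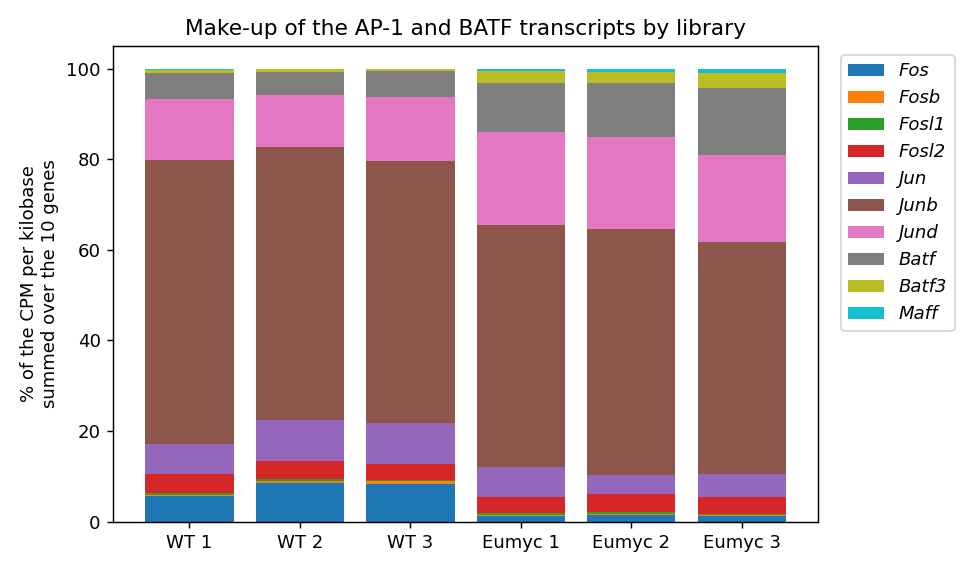
Share of each member in the summed CPM per kilobase of the 10 genes (y axis, percent) in each of the 6 libraries. Junb makes up 57.8% to 62.7% in WT and 51.1% to 54.2% in Eumyc, while Batf goes from 5.22% to 5.78% in WT to 10.8% to 14.6% in Eumyc.

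Ratios of 2 members within a library do not depend on scaling between libraries. They were taken from CPM without a correction for length, so they compare the groups and not the levels of the 2 genes. The log2 ratio of Fos to Jun (CPM plus 0.1) was -0.60 ± 0.07 in WT and -2.36 ± 0.37 in Eumyc (SD, n = 3 each), with Fos lower relative to Jun in every Eumyc library than in any WT library. The log2 ratio of Junb to Jund went from 2.68 ± 0.19 to 1.86 ± 0.02. The log2 ratio of Batf to Jun went from -1.74 ± 0.31 to 0.06 ± 0.45, where Eumyc 1 was at -0.46 and the other two at 0.31 and 0.33. The ratio of Batf to Batf3 dropped from 3.14 ± 0.39 to 1.94 ± 0.15. In each of the 4 ratios the groups did not overlap, and the two-sided exact permutation test gave p = 0.1 for each, also 0.1 after Benjamini-Hochberg adjustment over the 4, the smallest value that 3 against 3 allows.

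Libraries within a group were not alike in these genes. WT 1 was below the mean of WT 2 and 3 by 0.75 log2 units for Fos, 1.26 for Fosb and 0.63 for Jun, but by 0.10 for Junb and 0.03 for Fosl2. Eumyc 1 was above the mean of Eumyc 2 and 3 by 0.67 for Jun and below it by 0.65 for Maff. The 5 members that fell and the 3 that rose passed the test without any 1 of the 6 libraries.

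Transcripts of other cell types also differed between the groups, where 25.7% of all tested genes rose and 23.1% fell. The 10 NK markers were present in every library, at a summed 15441 to 15717 CPM in WT and 14080 to 15116 CPM in Eumyc, so the libraries matched their label, although 5 of the 10 fell and 1 rose. Of the monocyte and macrophage markers 8 of 10 rose and none fell, with sums of 889 to 1014 CPM in WT and 2062, 1432 and 1466 CPM in Eumyc 1, 2 and 3. Most of the WT sum was Ccr2, with means of 832 (WT) and 978 (Eumyc) CPM and overlapping groups. Csf1r, the next most abundant, went from 42.2 to 226 CPM. Of the B cell and lymphoma markers 9 of 10 rose (16.8 to 20.4 and 56.5 to 61.8 CPM). Of 9 tested neutrophil markers 8 rose (1.01 to 4.33 and 45.8 to 59.3 CPM over all 10), and of the erythroid markers 8 of 9 (14.9 to 33.8 and 61.8 to 73.3 CPM). Among T cell markers 3 of 10 rose and 1 fell (211 to 217 and 258 to 295 CPM). Only 3 of the 6 platelet markers were tested, of which 1 rose and 2 fell (13.2 to 20.7 and 10.4 to 11.3 CPM over all 6). Beside Batf3, 5 of 9 dendritic cell markers rose (735 to 827 and 1177 to 1258 CPM), a sum made mostly of Itgax (769 and 1215 CPM), which NK cells also express. Xcr1 and Clec9a mark the dendritic cells that need BATF3. Xcr1 rose from a mean of 0.170 to 0.661 CPM (edgeR adjusted p = 0.0149). Clec9a went from 0.114 to 0.429 CPM and missed the threshold (adjusted p = 0.0585). Both had few reads in WT, with counts of 5, 10 and 1 for Xcr1 and 0, 6 and 3 for Clec9a. Elsewhere in the list Zbtb46 averaged 10.2 CPM in WT and 8.48 CPM in Eumyc, and Ccr7 2.26 and 1.64 CPM. Neither passed (edgeR adjusted p = 0.345 and 0.119). Flt3 rose from 0.0320 to 0.894 CPM. No marker was at 0 in all 6 libraries, but Siglech, Ly6g, Elane and Treml1 were at 0 in WT. All 10 proliferation markers rose, with sums of 85.9, 69.8 and 331 CPM in WT 1, 2 and 3 and 1512 to 2217 CPM in Eumyc, led by Mki67 with means of 64.6 (WT) and 673 (Eumyc) CPM. The part of these transcripts in the results on the members was not tested. In Eumyc 1, where monocyte markers were highest, Jun, Junb, Jund and Fosb were highest among the Eumyc libraries and Batf and Maff lowest. Fos, Fosl1, Fosl2 and Batf3 lay between the other Eumyc libraries there.

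The other genes of the pathway were taken from lists of fixed membership. The counts of each list below are to be read beside the 25.7% of all tested genes that rose and the 23.1% that fell. Of 20 further bZIP factors related to AP-1, 6 rose and 4 fell, with a median log2 fold change of 0.04. Atf6, a factor of the unfolded protein response, rose from 103 ± 5.97 to 158 ± 2.12 CPM (SD, n = 3 each, log2 fold change 0.62 ± 0.06). Nfe2, a partner of small MAF proteins, rose by 0.85 ± 0.28 and Bach2, a repressor that binds with small MAF proteins, fell by 0.50 (SE 0.16). Nfe2 did not pass without WT 2, WT 3 or Eumyc 1 (edgeR adjusted p = 0.122, 0.0670 and 0.0917) and stood at 0.52 in the last case, nor with all libraries under limma-voom, without and with quality weights (adjusted p = 0.0551 and 0.0832). Bach2 did not pass without WT 1, WT 2, Eumyc 1 or Eumyc 3 (adjusted p from 0.0962 to 0.121). The lower count of the list was 2 without WT 2 and 7 without WT 3.

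Upstream of AP-1, 12 of 22 tested genes of MAP kinases and their activators rose and 5 fell, with a median of 0.21. The kinase genes Rps6ka1 and Mapkapk2, which act downstream of ERK and p38, rose by 0.69 ± 0.06 each, and Braf, which activates the ERK pathway, fell by 0.60 (SE 0.09). Without WT 2 the count that rose was 7. Of 6 tested genes for SRF and its cofactors, which drive Fos transcription, 4 fell and none rose, with a median of -0.24. Elk4, a ternary complex factor, fell by 0.51 (SE 0.08) and the SRF coactivator genes Mkl1 and Mkl2 by 0.32 (SE 0.06) and 0.28 (SE 0.10), while Srf averaged 137 (WT) and 142 (Eumyc) CPM with an adjusted p of 0.565. When WT 1, WT 2, Eumyc 1 or Eumyc 3 was left out, 2 genes fell in place of 4, and Mkl2 was not called in any of these cases (edgeR adjusted p from 0.130 to 0.151). With all libraries and no filter on low counts 2 genes fell as well, with Mkl2 at an adjusted p of 0.0538, and Mkl2 also missed the threshold after thinning to the smallest library (0.0548).

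Of 7 genes of JUN and FOS turnover 3 fell and none rose, and all 3 encode ZFP36 proteins, which bind AU-rich sequences in short-lived mRNAs and promote their decay. Zfp36l2 went from 1302 ± 33.5 to 631 ± 118 CPM (SD, n = 3 each, log2 fold change -1.04 ± 0.12), Zfp36 fell by 0.56 (SE 0.14) and Zfp36l1 by 0.31 (SE 0.10). The count was 1 without WT 2, where Zfp36 had an edgeR adjusted p of 0.0535 and Zfp36l1 of 0.122, and Zfp36l1 did not pass without WT 1, Eumyc 2 or Eumyc 3 either (adjusted p = 0.108, 0.0576 and 0.107). The ubiquitin ligase genes Fbxw7, Itch and Rfwd2 did not pass (adjusted p = 0.162, 0.764 and 0.284).

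Other immediate early genes did not follow Fos as a group. Of 19 tested genes 7 rose and 7 fell, with a median of 0.16. Egr1, like Fos a target of SRF, rose from 16.3, 14.8 and 27.7 CPM (WT) to 74.2, 75.3 and 60.8 CPM (Eumyc, log2 fold change 1.86 ± 0.22, edgeR adjusted p = 0.000425). All Eumyc libraries were above all WT libraries, where those of Fos were all below. Nr4a1, a nuclear receptor gene induced by antigen receptor signals, rose by 2.53 ± 0.33, and Klf4, a gene also expressed by monocytes, by 3.53 ± 0.40. Both were highest in Eumyc 1, at 203 and 54.1 CPM, the library with the most monocyte marker transcripts, whose part was not tested. Among those that fell, named after their values were seen, were Dusp1 (log2 fold change -1.08), Dusp2 (-1.05) and Ier2 (-0.70), which encode MAP kinase phosphatases and an immediate early nuclear protein. Other genes of MAP kinase phosphatases did not fall. Dusp6 rose from 39.3 to 74.0 CPM (log2 fold change 0.91, edgeR adjusted p = 0.000186). Dusp5 averaged 177 CPM in WT and 197 CPM in Eumyc and did not pass (edgeR adjusted p = 0.271).

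Handling and heat shock genes were split too, with 4 of 10 higher and 4 lower and a median of -0.24. Ppp1r15a, which restores translation after stress, fell by 1.27 (SE 0.13), and the chaperone genes Dnaja1 and Dnajb1 fell by 0.87 (SE 0.10) and 0.75 (SE 0.08). Other chaperone genes, named after their values were seen, rose, with Hspa8 at 0.42 (SE 0.12) and Hsp90aa1 at 0.30 (SE 0.09). The higher count was 2 without WT 1 or WT 2. The time from harvest to lysis is not given in the labels, and its part in the fall of Fos was not tested. Of 13 tested genes known as AP-1 targets 7 rose and none fell, with a median of 0.65, although 1 was lower without Eumyc 1. Among all tested genes 25.7% rose and 23.1% fell. Il2ra, a chain of the interleukin-2 receptor, rose by 1.97 ± 0.38, the activation marker gene Cd69 by 0.68 ± 0.15 and Cd274, which encodes PD-L1, by 0.35 ± 0.13. The others that rose were low in WT. Il2 went from 0.319 to 0.909 CPM, Ccnd1 from 0.916 to 2.59, Mmp9 from 0.818 to 4.05 and Plaur from 0.112 to 6.62. The part of transcripts of other cell types in these values was not tested. Cd274 lost its call without WT 1, WT 2, Eumyc 1 or Eumyc 3 (edgeR adjusted p from 0.0501 to 0.149), and with all libraries under total counts (0.0681), upper quartile scaling (0.0692), the 3 CPM filter (0.0520) and thinning (0.0503). With the 3 CPM filter 4 of the targets rose. Ifng, the main cytokine gene of NK cells, averaged 38.9 (WT) and 30.8 (Eumyc) CPM with an adjusted p of 0.126.

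**Figure D4:**
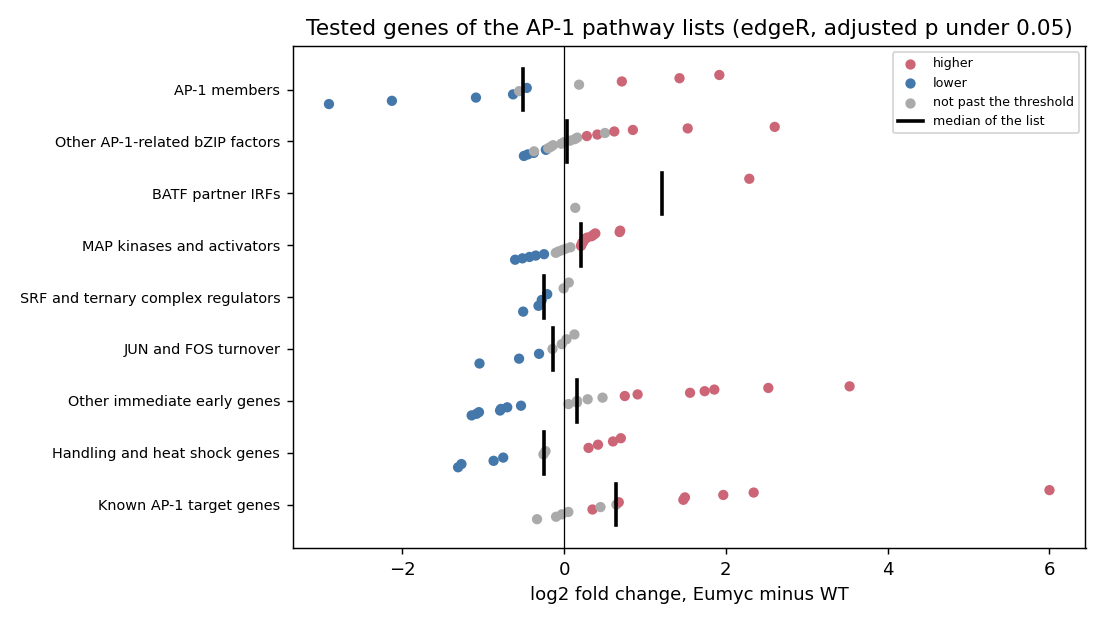
Log2 fold change, Eumyc minus WT, of every tested gene of the members and of the 8 pathway lists, 1 point per gene, with a black bar for the list median (edgeR, n = 3 per group). Points of the members and of the immediate early genes spread to both sides, from -2.91 for Fos to 3.53 for Klf4, and the SRF and turnover lists hold lower calls and no higher ones.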

How the data were processed

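RNA of sorted splenic NK cells was sequenced in 6 libraries, 3 WT and 3 Eumyc, grouped by their titles. The authors deposited whole-number counts per Ensembl gene, and the submitters' processing notes name DESeq2 1.10.1, HTSeq 0.6.1 and STAR 2.5.2, with the builds mm10 and GRCm38. No source used here gives the annotation release or the strand setting. Log2 fold changes and adjusted p-values of the authors' own test were read from a second deposited table. Library totals were 16407611 to 36534191 counts in WT and 44456157 to 66615602 in Eumyc, so every Eumyc library was deeper. All libraries differed by more than sampling noise (lowest chi-square per degree of freedom 8.32).

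The test was that of edgeR 4.0.16 under R 4.3.3 (filterByExpr at a minimum count of 10, TMM, quasi-likelihood F test on the group alone, two-sided, Benjamini-Hochberg over 15458 genes, threshold 0.05). Standard errors come from the F statistic. The scripts were tested on simulated counts. The alternatives used limma 3.58.1 (voom, also with quality weights), DESeq2 1.42.0, other scalings and filters, a 1.5-fold null, a replicate block, thinning to the smallest total and leaving out each library. Merged exon lengths come from GENCODE M21 and upstream sequences from RefSeq, in which 9 of 10 members matched. The windows of Jund, Fosl2 and Batf3 began 1210, 671 and 567 bases from the deposited gene start and those printed at most 51 bases from it. No protein sequence was used here.

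The members and gene lists were chosen with earlier results of these data known. Named genes were all members, up to 3 changed genes with the largest log2 fold change and at least 10 CPM in each pathway list, and for Fos, Junb, Batf and Maff the 3 genes of most similar profile. The rule also took the 2 most abundant genes of each marker list, but for most of these lists they are not given here. Other genes were named after their values were seen. The symbol Map2k7 belongs to 2 identifiers, of which 1 had 0 counts. Figures were drawn with matplotlib 3.10.9.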

Additional observations from a re-analysis of the deposited data

How the results depend on the processing

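Of 178 values of the 10 members under the alternatives 173 kept their direction and their side of the threshold, none reversed, 4 lost their call and 1 gained it. The 4 losses came from testing against a 1.5-fold change, which asks for a larger change by construction. There 2 members were lower (Fos and Fosb), while Jun had an edgeR adjusted p of 0.0607, Junb 0.503, Fosl2 1 and Batf 0.169, and over all genes 1260 were higher and 568 lower. The gain was Jund without WT 3. Without 1 library, 5 members were lower in every case and 3 to 4 higher, and over all genes 3252 to 4284 were higher and 2616 to 3623 lower. Fosl1 and Maff had no value under the filter of 3 CPM in 3 libraries. Other scalings moved the median of all genes by less than 0.1 on the log2 scale. The count of other bZIP factors that fell was 7 with voom quality weights, total counts or upper quartile scaling. Against a 1.5-fold change the lists held, higher and lower, 1 and 0 bZIP factors, 0 and 0 MAP kinase genes, 0 and 0 SRF genes, 0 and 1 turnover genes, 6 and 3 immediate early genes, 0 and 2 handling genes and 4 and 0 targets.

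The replicate numbers are only names. Deviations of same-numbered libraries correlated at 0.04, 0.10 and 0.13 across genes, and each library correlated best with its own number, a hint from the data and not from the design. With a replicate block 3 members were higher and 5 lower, and 4176 and 3684 of all genes, so no call on the members changed. Fosb, Fosl1, Batf3 and Maff rest on low counts. The shallowest library, WT 3, held the lowest counts of Fosl1, Batf3 and Maff, at 32, 31 and 16, and limits their precision. For Fosb the lowest count was 97, in Eumyc 1.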

Other observations

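The genes most like 4 of the members in profile were found by the root mean square difference of log2 CPM, each gene centred on its mean over the 6 libraries, among 8860 named genes with at least 10 CPM in the higher group. For Fos these were Tbx6, Cdh22 and Vegfa, at 0.51, 0.55 and 0.56 log2 units, a looser match than for the other 3 members. Tbx6, a T-box factor gene, went from 14.3 ± 4.07 to 2.67 ± 0.22 CPM (SD, n = 3 each). For Junb they were Atat1, Nfkbid and Rarg, at 0.037, 0.039 and 0.041 log2 units, and Nfkbid, which encodes a nuclear IκB protein, went from 104 ± 2.23 to 64.9 ± 5.72 CPM. For Batf they were Rangap1, Cdca4 and Rbbp8, at 0.030, 0.036 and 0.036, and Rangap1, which encodes an activator of the RAN GTPase, went from 123 ± 6.51 to 203 ± 16.4 CPM. For Maff they were Fam46c, Cenpa and Arhgap33, at 0.18, 0.22 and 0.24.

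Low-abundance relatives of the members, named after their values were seen, rose. Atf3, a stress-induced partner of JUN proteins, stood at 0.577, 1.43 and 1.14 CPM in WT and 4.27, 2.69 and 2.26 CPM in Eumyc (log2 fold change 1.53 ± 0.38, edgeR adjusted p = 0.0104). Batf2, the third BATF gene, averaged 0.182 CPM in WT and 1.09 CPM in Eumyc (log2 fold change 2.60 ± 0.58, edgeR adjusted p = 0.00645). Both were highest in Eumyc 1, the library with the most monocyte marker transcripts, whose part was not tested.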
